A study of Mus musculus with 40 samples.

Results

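Livers of mice aged 12 months were compared with livers of mice aged 3 months, 48 h after partial hepatectomy (PH), the surgical removal of part of the liver. The comparison covered all 11119 genes of 11119 in the tables and took in 6 of the 40 samples of the study, 3 untreated mice at each age. The study followed polyA RNA in mouse liver before PH (0 h), at 48 h and at 72 h, at both ages, without and with an inhibitor of the kinase ATR (ATRi) given once, 24 h after PH. Besides the 48 h groups, the untreated means at 0 h (8 mice of 12 months, 7 of 3 months) and at 72 h (4 mice at each age), the mean of 3 ATRi-treated mice of 12 months at 48 h, and 4 single ATRi-treated livers of 12 months at 72 h were used for reference. The labels give the tissue as liver and the cell type as hepatocytes. Strain, sex, diet, the hour of day at surgery and harvest, the compound behind the name ATRi and the way cells were taken are not given in the sources used here. Each group of the 48 h comparison was deposited as 1 mean of 3 mice, so neither group has a spread of its own.

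After PH the remaining hepatocytes leave quiescence, copy their DNA and divide until liver mass is restored. While they do so, fat released from adipose tissue reaches the liver, where it can be stored in droplets or burned in mitochondria and peroxisomes. The nuclear receptor PPARα, activated by fatty acids and most active in fasting, raises genes of fatty acid uptake, oxidation and ketone body formation. Insulin and feeding act through the transcription factors SREBP-1c and ChREBP and raise the genes that make fatty acids from sugar.

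Levels are in the authors' unit log2 sigma, where sigma is not defined in the sources used here. They are read as log2 expression, and folds and summed linear levels rest on that reading. A difference is the level at 12 months minus that at 3 months, and a difference of 1 is then a fold of 2. At 48 h, 87 genes (0.782% of all) were higher by 1 or more at 12 months and 64 (0.576%) were lower by 1 or more. Over all genes the median difference was 0.03 and 55.4% were higher by any amount. The groups stand in separate tables, and whether these were scaled together is not given in the sources used here. The files hold no counts, so the depth behind each value is unknown, and low levels are the least certain: 1927 genes were under 1 in both groups, and 11 of the 151 genes differing by 1 or more had their higher level under 2.

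Spread between mice could be taken from the 4 single livers alone, which were treated with ATRi and taken at 72 h. The median SD over these livers was 0.233 for all genes and 0.476 for the 151 genes differing by 1 or more at 48 h. Of those 151, 102 (61 higher and 41 lower) differed by more than 2 times their own SD over these livers. The 151 were chosen for a difference of 1 or more, and 2 times their median SD of 0.476 is below 1. Many of them therefore pass by the way they were chosen, so the count of 102 does not show how reliable the differences are. The SD of single livers is also not the error of a difference between group means. A test with this spread borrowed for every group (limma, Benjamini-Hochberg over all genes) passed 12 genes, 0.108% of those tested, and 963 genes had an unadjusted p under 0.05. Without liver M548 no gene passed (830 at an unadjusted p under 0.05), so none of the 12 calls, Pdk4 and Scd1 included, held without it, while 2 genes passed without liver M547 and 5 without liver M545. The test assumes that untreated livers at 48 h vary like treated livers at 72 h. Below, "rose" and "fell" are kept for those 12 genes, and all other differences are given as higher or lower, without a test.

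**Figure D1:**
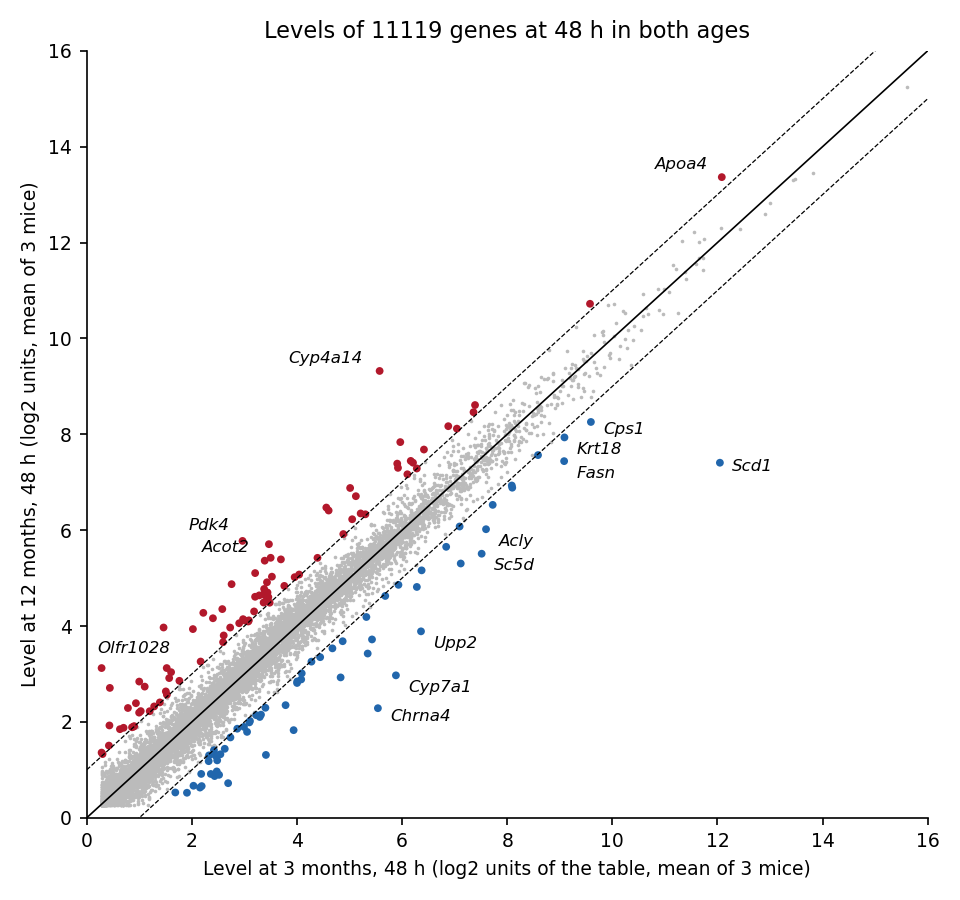
Each point is 1 gene, with its mean level at 3 months on the x axis and at 12 months on the y axis (both log2, 48 h, 3 mice each). The solid line marks equal levels and the dashed lines a difference of 1. The 87 genes in red lie on or above the upper line and the 64 in blue on or below the lower one, with Scd1 farthest below and Cyp4a14 farthest above.

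Genes of fatty acid breakdown were mostly higher at 12 months. Of 29 measured ω-hydroxylation genes and PPARα targets, 26 were higher at 12 months (89.7%, against 55.4% of all genes). Of these, 8 were higher by 1 or more, as were 0.782% of all genes, and the list's median difference was 0.64. Of 25 measured fatty acid oxidation genes, 22 were higher (88%) and 7 by 1 or more (median 0.68). Of 9 genes of ketone body synthesis and export, 7 were higher (77.8%) and 1 by 1 or more. Their median of 0.40 lay within the SD of the list's median over the 4 livers (0.45). That SD was 0.16 for the PPARα target list and 0.23 for fatty acid oxidation. No member of these lists was lower by 1 or more. Together the lists hold 63 genes, and the 16 of them that were higher by 1 or more made up 18.4% of all 87 such genes.

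Cyp4a enzymes hydroxylate the ω end of fatty acids, a first step towards their breakdown from that end, and their genes are standard readouts of PPARα activity in mouse liver. Cyp4a14 (chr4:115486200-115496142, minus strand) stood at 5.57 at 3 months and 9.32 at 12 months, a 13.4-fold difference. Cyp4a10 was at 2.22 and 4.28, Cyp4a31 at 3.70 and 5.39, and Cyp4a32 at 2.58 and 4.35. All 4 lie in the same part of chromosome 4 and were higher in the older mice. Cyp4a10 (difference 2.06, limma adjusted p = 0.0451) and Cyp4a32 (1.77, limma adjusted p = 0.0434) rose. Cyp4a14, with the larger difference of 3.75, did not pass (limma adjusted p = 0.345), and its SD over the 4 livers was 1.97 against 0.10 for Cyp4a32. The longest coding transcripts of Cyp4a10 and Cyp4a32 are 97.2% identical and those of Cyp4a31 and Cyp4a32 96.0%, so reads could have been split between these copies and their separate values are uncertain. Cyp4a12a (2.58 and 3.01) and Cyp4a12b (0.72 and 1.37), relatives that in mice are known for male-biased expression, were also higher at 12 months, by less than 1.

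Pdk4, the kinase that shuts pyruvate dehydrogenase and so spares glucose while fat is burned, rose with age at 48 h from 2.97 to 5.78 (difference 2.81, SE 0.28, limma adjusted p = 0.0418). Of the 3 genes of the PPARα target list that passed the test, Cyp4a10 had no promoter window in the sources used here. The promoters of the other genes, Pdk4 and Cyp4a32, are shown. They are RefSeq windows of GRCm38.p6, 250 bases before and 50 bases from the annotated start, with the latter in capitals.
Pdk4 (chr6:5496229-5496528, minus strand): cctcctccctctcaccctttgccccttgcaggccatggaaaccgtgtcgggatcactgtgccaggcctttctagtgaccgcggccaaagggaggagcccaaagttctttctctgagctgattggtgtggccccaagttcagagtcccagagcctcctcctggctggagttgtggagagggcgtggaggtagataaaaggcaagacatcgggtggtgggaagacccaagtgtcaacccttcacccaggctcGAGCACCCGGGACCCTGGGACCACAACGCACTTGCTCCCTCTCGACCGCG
Cyp4a32 (chr4:115600688-115600987, plus strand): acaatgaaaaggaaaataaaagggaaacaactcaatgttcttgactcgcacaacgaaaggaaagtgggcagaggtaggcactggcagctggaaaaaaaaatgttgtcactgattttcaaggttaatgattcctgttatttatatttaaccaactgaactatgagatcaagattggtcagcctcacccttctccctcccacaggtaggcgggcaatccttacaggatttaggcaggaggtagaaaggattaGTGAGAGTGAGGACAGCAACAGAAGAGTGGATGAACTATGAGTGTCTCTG
A direct repeat of AGGNCA with 1 base between the copies (N is any base), of the kind bound by PPARα with RXR and by HNF4A, was searched on both strands and occurs in 0.381% of all 32851 such windows. The sterol regulatory element TCACNCCAC occurs in 1.24%. Neither was found in the 20 windows of 15 genes that matched among the 20 genes most above at 12 months, nor in the 14 windows of 11 genes that matched among the 20 most below. That says only that these letters are not in these windows.

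The enzymes that move and split fatty acids followed the same direction. Acot2, a mitochondrial acyl-CoA thioesterase, was at 3.39 at 3 months and 5.36 at 12 months, and its peroxisomal relative Acot3 at 2.76 and 4.87. Both were more than 1 higher in the older mice, as was the cytosolic Acot1 (1.04), whose transcript is 93.8% identical to that of Acot2 over the aligned part. Ehhadh, the bifunctional enzyme of peroxisomal β-oxidation, differed by 1.08, against an SD over the 4 livers of 0.14. Crot, which makes medium-chain acylcarnitines that leave the peroxisome, differed by 1.22 (SD 0.25). The carnitine transporter Slc22a5 was at 3.28 and 4.64, the peroxisomal fatty acid importer Abcd2 at 1.57 and 2.92, and the fatty aldehyde dehydrogenase Aldh3a2 at 5.92 and 7.30. Among the mitochondrial entry and oxidation genes, smaller differences were found, with Cpt1a, the rate-limiting carnitine palmitoyltransferase, at 0.73, the carnitine-acylcarnitine carrier Slc25a20 at 0.97, Acadl at 0.63 and the electron carrier dehydrogenase Etfdh at 0.78.

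Genes of ketone body formation were mostly higher as well. Bdh1, which turns acetoacetate into β-hydroxybutyrate, was at 6.27 at 3 months and 7.25 at 12 months, a difference of 0.98. The thiolase Acat1 differed by 0.72. Other targets of PPARα were higher too, among them the pantetheinase Vnn1 (1.59), the lipid droplet coat protein Plin2 (0.79) and the fatty acid transporter Cd36 (0.78). The exceptions within that list included Fabp2, a fatty acid-binding protein best known from the intestine (−0.66), and the keratin Krt23 (−0.58). Apoa4, an apolipoprotein of triglyceride-rich particles, was at 12.08 and 13.36. The receptor gene itself was nearly level, with Ppara at 3.49 and 3.59, as was the coactivator Ppargc1a (0.97 and 1.06).

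Fatty acid synthesis showed the opposite direction. Of 27 measured genes of fatty acid and triglyceride synthesis, 8 were higher at 12 months (29.6%, against 55.4% of all genes), none by 1 or more. By 1 or more, 6 were lower, as were 0.576% of all genes, and the median was −0.44. Scd1 (chr19:44394455-44407879, minus strand), the desaturase that makes oleate and palmitoleate, fell from 12.05 at 3 months to 7.41 at 12 months (24.9-fold, difference −4.64, SE 0.46, limma adjusted p = 0.0418). Its neighbour Scd2 was at 3.94 and 1.83, a difference of −2.11 beside an SD over the 4 livers of 1.31. Their transcripts are 86.8% identical over the aligned part.

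The other lower genes of this list span the path from citrate to stored fat. Acly, which splits citrate into acetyl-CoA, was at 7.60 and 6.02. Acss2, which makes acetyl-CoA from acetate, was at 4.87 and 3.68, and the fatty acid synthase gene Fasn at 9.08 and 7.44. Pnpla3, a lipid droplet protein whose gene is induced by feeding, was at 2.36 and 0.92. Each of these was more than 1 lower in the older mice. The difference was more than 2 times the SD over the 4 livers for Acly (SD 0.66), Fasn (0.59) and Pnpla3 (0.42) and less than that for Acss2 (0.84). The acyl-CoA synthetase Acsl5 (−0.82), the phosphatidate phosphatase Lpin1 (−0.81) and the acyltransferase Gpam (−0.80) were lower by less. Pklr, the liver pyruvate kinase and a ChREBP target, was higher (0.48), and Mlxipl, which encodes ChREBP, was nearly level (0.05). Elovl3, a fatty acid elongase, is counted with its overlapping neighbour Pitx3 as 1 entry, which rose from 1.46 to 3.97 (limma adjusted p = 0.0247). The share of that entry due to Elovl3 cannot be told.

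Sterol genes differed in both directions. Of 22 genes of cholesterol synthesis and uptake, 11 were higher and 11 lower at 12 months, with a median of −0.13. Sc5d, the lathosterol oxidase, was lowest (7.51 at 3 months, 5.51 at 12 months). The final reductase Dhcr7 (−0.89) was lower, while Cyp51 (0.75) and Hsd17b7 (0.74), which act earlier in the late pathway, were higher. Srebf2, the regulator of these genes, differed by 0.25.

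Bile acid synthesis and transport genes had a median of 0.11, within the SD of the list's median over the 4 livers (0.22). Of 25 genes, 17 were higher (68%, against 55.4% of all genes). Cyp7a1, whose product commits cholesterol to bile acids, was at 5.88 at 3 months and 2.97 at 12 months. That difference of −2.91 stands beside an SD over the 4 livers of 2.39. A wide spread was also seen in the oestrogen sulfotransferase gene Sult1e1 (difference −1.56, SD 2.38). Cyp2c70, which makes muricholic acids, was lower (−0.86). The uptake transporters Slc10a1 (0.58), Slco1b2 (0.74) and Slco1a1 (0.76) were higher. The bile acid receptor gene Nr1h4 differed by 0.36 and its target Nr0b2 by −0.37.

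**Figure D2:**
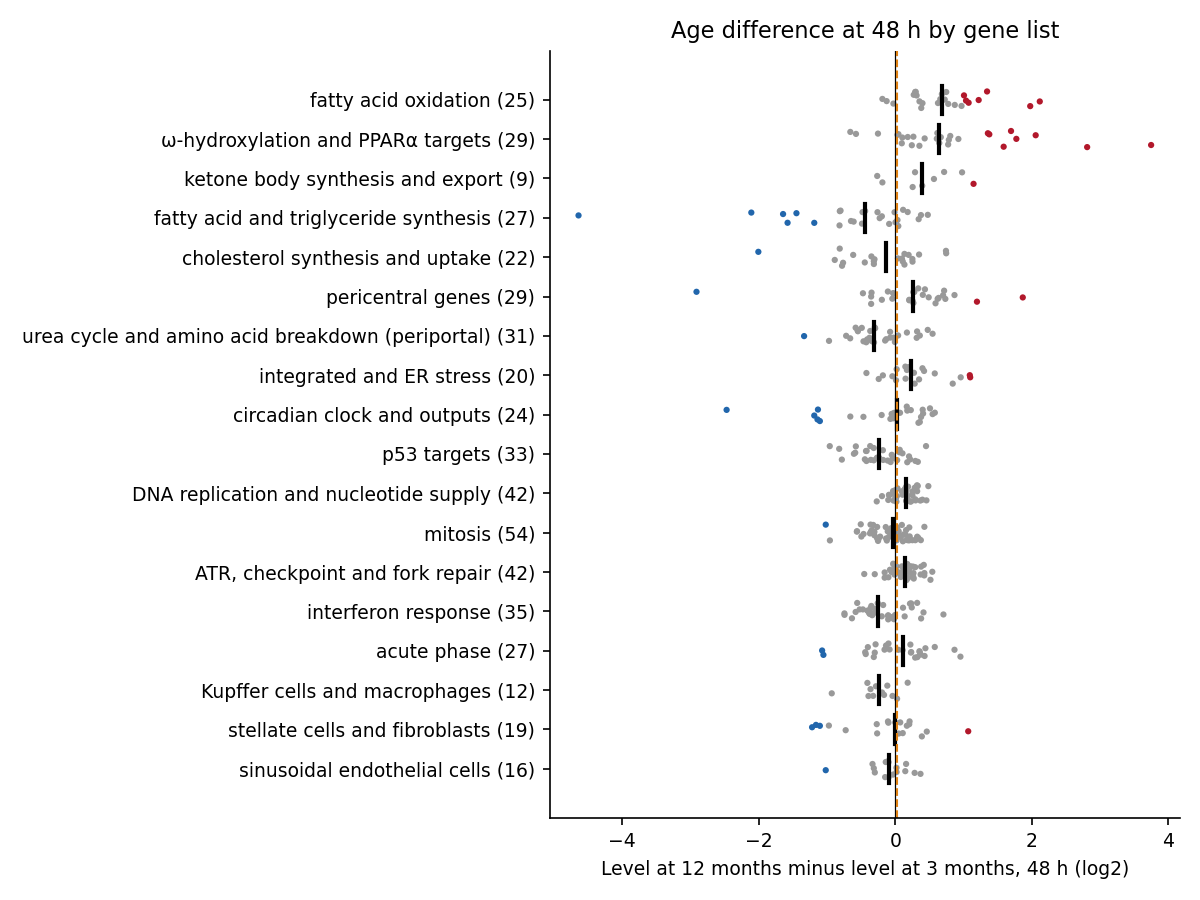
Each point is 1 measured gene of a list (number measured in brackets), placed by its level at 12 months minus that at 3 months at 48 h (log2, x axis). Black bars are list medians, the dashed line is the median of all genes (0.03), and red or blue points differ by 1 or more. The 3 lists of fat breakdown have medians from 0.40 to 0.68, and the lists of replication, mitosis and ATR lie within −0.04 and 0.16.

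Urea cycle and amino acid breakdown genes, most of them periportal, were mostly lower at 12 months. Of 31 measured, 7 were higher (22.6%, against 55.4% of all genes) and 24 lower (median −0.31, SD of the list's median over the 4 livers 0.11). Cps1, the entry enzyme of the urea cycle, was at 9.59 and 8.26, a difference of −1.34 beside an SD of 0.30. Ass1 (−0.97), Arg1 (−0.72), Asl (−0.43) and Otc (−0.37), the other enzymes of the cycle, were lower as well. Of 29 pericentral genes, which are expressed around the central vein, 19 were higher (65.5%, against 55.4% of all genes), and the median of 0.27 lay within the SD of the list's median over the 4 livers (0.83). Among its P450s, Cyp2c37 (5.01 and 6.88), Cyp2c54 (2.61 and 3.80), Cyp2c29 (0.73) and Cyp2e1 (0.72) were higher, while Cyp7a1 (−2.91), Cyp1a2 (−0.35) and Cyp3a11 (−0.20) were lower. The glutathione transferase genes Gstm1 (−0.47), Gstm2 (−0.35) and Gstm3 (−0.35) of that list were lower too. These P450s vary between mice, with an SD over the 4 livers of 1.75 for Cyp2c37 and 0.96 for Cyp2c54.

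Other P450 genes differed in both directions. Cyp26a1, which degrades retinoic acid and is induced by it, was at 4.60 and 6.41, and its relative Cyp26b1 at 0.998 and 2.19. Cyp2j9 was at 2.40 and 4.16, with an SD of 0.18. Cyp2a5 (3.78 and 2.35) and Cyp2b10, the standard target of the receptor CAR (2.33 and 1.30), were lower at 12 months. Nr1i3, which encodes CAR, is counted jointly with Tomm40l, and that entry was higher (1.10). Gstp1 (1.27) and Gstp2 (1.28), glutathione transferases whose transcripts are 94.2% identical, had nearly the same difference, so their values may not be separate.

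Genes that respond to low insulin or to amino acid shortage were higher in part. Igfbp1 (9.31 and 10.24) and Igfbp2 (3.46 and 4.60), binding proteins of insulin-like growth factors, and Irs2 (2.41 and 3.32), the insulin receptor substrate that insulin represses, were higher at 12 months. Pck1 (0.83) and G6pc (0.75), enzymes of glucose output, were higher by less than 1, and Foxo1 differed by 0.13. Of 16 genes of gluconeogenesis and glycogen, 10 were higher (62.5%, against 55.4% of all genes) and 6 lower. Their median of 0.12 lay within the SD of the list's median over the 4 livers (0.43). The list of insulin signalling had 15 of 22 higher (68.2%, against 55.4% of all genes). Its median of 0.02 becomes −0.002 when all differences are centred on their median. Of 20 genes of the integrated and ER stress responses, 16 were higher (80%, against 55.4% of all genes). The median of 0.24 lay within the SD of the list's median over the 4 livers (0.35). Trib3, a pseudokinase induced by ATF4, was at 3.02 and 4.11, and the serine synthesis enzyme Psat1 at 2.17 and 3.26. Asns, the asparagine synthetase, differed by 0.96 and the mitochondrial folate enzyme Mthfd2 by 0.84.

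Several clock-controlled genes also differed. Of 24 clock genes and outputs, 12 were higher and 12 lower. By 1 or more, 5 were lower, as were 0.576% of all genes, while none was higher by 1 or more. The median was 0.03, as over all genes, but it balances members of both directions. Among those higher by less than 1 were Cry1 (0.41), Arntl (0.38), Npas2 (0.34) and Clock (0.23). Nr1d1, a core repressor of the clock, was at 6.84 at 3 months and 5.65 at 12 months. The period genes Per2 (−1.10) and Per3 (−1.14), the output factor Tef (−1.13) and the uridine phosphorylase Upp2 (6.36 and 3.89) were lower. Many lipid and bile acid genes named above, Cyp7a1 and Scd1 among them, follow the hour of day and feeding, and the hour of harvest of each group is not given in the sources used here. The part of harvest time or feeding in the age differences was not tested.

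Cell division genes differed by small amounts. Mki67, expressed by cycling cells, was at 5.42 at 3 months and 5.17 at 12 months, against 1.22 and 1.11 at 0 h, so both ages had high values at 48 h. The mitotic kinase Cdk1 was at 6.11 and 6.08, cyclin D1 (Ccnd1) at 3.28 and 3.27, and Top2a, which untangles DNA, at 4.61 and 4.98. Among 54 mitosis genes, 23 were higher (42.6%, against 55.4% of all genes). By 1 or more, 1 was lower, the cyclin Ccnb2 (−1.02), followed by the spindle protein Knstrn (−0.96). The mitosis median of −0.04 lay within the SD of the list's median over the 4 livers (0.30). In the list of 42 replication and nucleotide supply genes, 31 were higher (73.8%, against 55.4% of all genes). Its median of 0.16 lay above the SD of that median over the 4 livers (0.10). The largest differences were those of the histone chaperone subunit Chaf1b (0.49) and the polymerase α subunit Pola2 (0.46). Of 42 ATR, checkpoint and fork repair genes, 30 were higher (71.4%), with a median of 0.14 above its SD over the 4 livers (0.12). They were led by the fork protection factor Tipin (0.54) and Brca2 (0.52), with Atr itself at 0.02 and Chek1 at 0.08. None of the replication and ATR genes differed by 1 or more.

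Some regulators of entry into S phase differed. E2f8, an atypical E2F that represses E2F targets and takes part in hepatocyte polyploidization, was at 3.44 at 3 months and 4.70 at 12 months, with an SD over the 4 livers of 1.62. The cyclin Ccne1 (−0.80) and the inhibitor Cdkn2c (−0.61) were lower, and the inhibitor Cdkn1c was higher (0.79). Cdkn1a, which encodes p21, differed by 0.22 and Trp53 by −0.07. Of 33 p53 targets 23 were lower, none by 1 or more, and 10 higher (30.3%, against 55.4% of all genes). The median of −0.24 lay within the SD of the list's median over the 4 livers (0.27). Among the lower ones were Btg2 (−0.78), Tnfrsf10b (−0.82) and Ccng1 (−0.59). Hist1h1b, a linker histone gene whose replication-dependent transcripts mostly lack a polyA tail, fell from 2.16 to 0.63 (limma adjusted p = 0.0418), and H1fx, another linker histone gene, was at 4.08 and 2.89.

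Among the 25 inflammation and chemokine genes with values, 18 were lower at 12 months and 7 higher (28%, against 55.4% of all genes), with a median of −0.12 beside an SD of the list's median over the 4 livers of 0.89. Ccl2 (2.63 and 1.44) and its neighbour Ccl7 (2.45 and 1.30), chemokines that draw monocytes, were lower at 12 months, as was Cxcl14 (4.83 and 2.93). Ccl5 (0.70 and 1.88), which draws T cells, and Cxcl13 (1.20 and 2.22), which draws B cells, were higher. Of 27 acute phase genes 15 were higher (55.6%, near the 55.4% of all genes). Their median of 0.11 lay within the SD of the list's median over the 4 livers (0.66). Crp was higher by 0.96 and Socs3 by 0.87, while the orosomucoid genes Orm1 (−1.07) and Orm3 (−1.05) were lower. Of 35 interferon response genes 26 were lower, none by 1 or more, and 9 higher (25.7%, against 55.4% of all genes). The median of −0.26 lay within the SD of the list's median over the 4 livers (0.99). The lower ones included Rsad2 (−0.74), Oas2 (−0.74) and Ifit3 (−0.63), while Ifi27 was higher (0.71).

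Markers of other liver cells were present although the label is hepatocytes. Of 11 hepatocyte markers 9 were lower at 12 months and 18.2% higher, against 55.4% of all genes. The median of −0.23 lay within the SD of the list's median over the 4 livers (0.35). Their summed linear level was 75688 at 3 months and 60092 at 12 months, most of it from Alb (15.61 and 15.25). The Kupffer cell lectin Clec4f was at 6.84 and 6.43, the endothelial marker Lyve1 at 4.28 and 3.26, and the stellate cell and fibroblast collagen Col3a1 at 4.35 and 3.38. In bulk RNA, fewer cells of a type and less RNA per cell cannot be told apart. The 12 Kupffer cell and macrophage markers had a median difference of −0.24 (10 lower, 16.7% higher), within the SD of the list's median over the 4 livers (0.46). Their summed linear level was 289 at 3 months and 232 at 12 months. The summed linear level of the 16 endothelial markers was 305 and 271 (10 lower, 37.5% higher). That of the 19 stellate cell and fibroblast markers was 210 and 203 (9 lower, 47.4% higher). None of the 12 T and NK cell markers was above 1 in both groups. Of 10 neutrophil markers 4 were above 1 in both, Lcn2 (6.34 and 6.45), Csf3r (1.62 and 1.61), Cxcr2 (1.37 and 1.48) and Mmp9 (1.16 and 1.58), while S100a8 was at 0.49 and 0.39 and Ly6g at 0.28 and 0.26. The part of these cells in the age differences was not tested.

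Stellate cell and fibroblast markers differed in both directions. Lrat, which stores retinol as esters in stellate cells, was higher at 12 months (2.60 and 3.66, SD over the 4 livers 0.13). The smooth muscle actin gene Acta2 was lower (2.54 and 1.33, SD 0.33). The collagen genes Col1a1 (−1.16, SD 1.09), Col1a2 (−1.10, SD 0.56) and Col3a1 (−0.97, SD 0.79) were lower by amounts between 1 and 2 times their SD over the 4 livers. The collagen chaperone Serpinh1 (−1.09) and the periostin gene Postn (−0.73) were lower too. Over all 19 markers the median was 0.00, and −0.10 among genes with a level of 2 or more in at least 1 group. Among epithelial genes, the keratins Krt8 (8.10 and 6.89) and Krt18 (9.09 and 7.94), which pair in hepatocyte filaments, were both lower.

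The mean of the ATRi-treated 12-month mice at 48 h offers a second set of older livers at the same time, though treated. Its values are set beside the untreated means without a test. Scd1 stood at 9.47 there, between 7.41 untreated and 12.05 at 3 months, and Cyp4a14 at 7.94. For Pdk4 the value was 3.21, near the 2.97 of the 3-month mice, and for Cyp4a10 it was 1.30, below both untreated means. In contrast Sc5d (5.27), Acly (6.13), Pnpla3 (0.78) and Upp2 (3.43) were at or near the untreated 12-month values of 5.51, 6.02, 0.92 and 3.89. Ccl2 (3.14), Col1a1 (4.20), H1fx (4.83) and Cebpa (7.88) were at or above their 3-month values of 2.63, 4.01, 4.08 and 7.72.

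**Figure D3:**
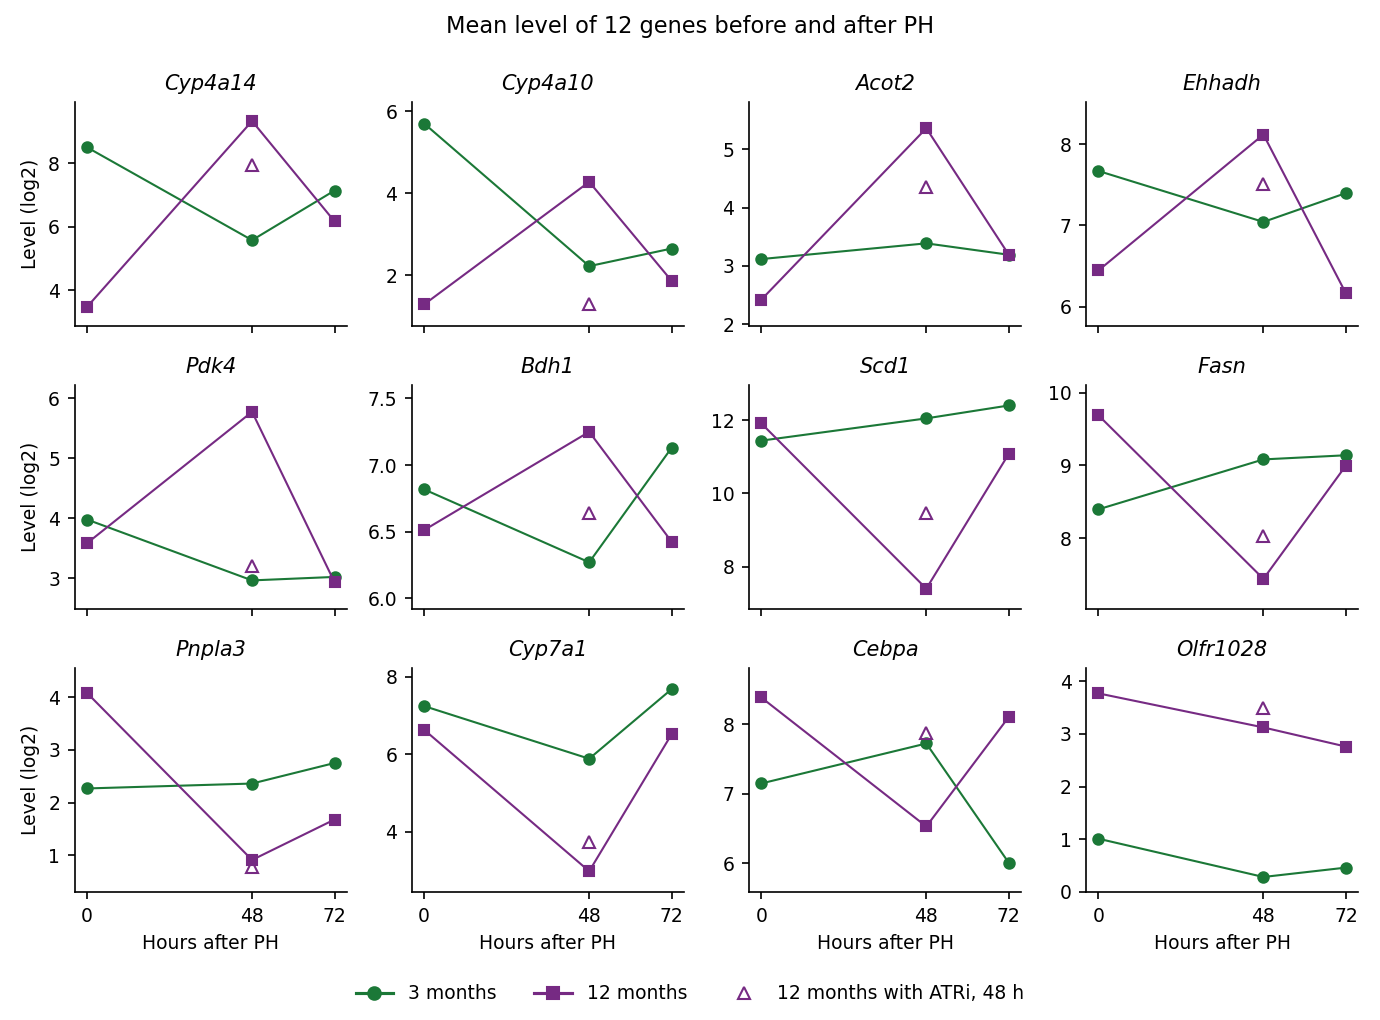
Mean level (log2, y axis, a separate scale for each gene) of 12 genes at 0, 48 and 72 h after PH (x axis). Circles are 3 months, squares 12 months and the open triangle ATRi-treated 12-month mice at 48 h, and lines only join group means. The lines of the 2 ages cross between 0 and 48 h for Cyp4a14, Fasn and Cebpa and stay apart for Olfr1028.

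Whether the 48 h differences were already there before surgery was asked with the 0 h means, which come from mice with other labels. Whether any mouse gave tissue at both times is not given in the sources used here. At 0 h, 141 genes (1.27%) differed by 1 or more between the ages, 97 higher (0.872%) and 44 lower (0.396%). With the same sign, 8 genes differed by 1 or more at both times, which is 5.30% of the 151 genes at 48 h and 5.67% of the 141 at 0 h. With the opposite sign there were 25, or 16.6% and 17.7%, of which 12 were higher at 48 h and lower at 0 h and 13 the reverse. Before PH, 38.4% of all genes were higher at 12 months and most were lower. Of the 87 genes higher by 1 or more at 48 h, 54 were lower by any amount at 0 h, close to the share of all genes that were lower. Of the 64 genes lower by 1 or more at 48 h, 35 were higher at 0 h, a larger share than the 38.4% of all genes. Across all genes the differences at 48 h and 0 h had a Pearson correlation of −0.18, and those at 48 h and 72 h one of −0.02, given as a description since genes are not independent.

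Among the genes with opposite signs were genes of fat metabolism and of inflammation. Cyp4a14 was at 8.49 at 3 months and 3.47 at 12 months before PH, so the age difference was −5.02 at 0 h and 3.75 at 48 h. Cyp4a10 (−4.42 at 0 h, 2.06 at 48 h), Acot3 (−2.27 and 2.12), Slc22a5 (−1.26 and 1.36) and Ehhadh (−1.22 and 1.08) behaved alike in sign. In the reverse direction went Fasn (1.29 at 0 h, −1.64 at 48 h), Pnpla3 (1.81 and −1.45), Cxcl14 (2.89 and −1.90), Ccl2 (1.77 and −1.19), Orm3 (3.76 and −1.05) and the hepatocyte transcription factor Cebpa (1.24 and −1.20). By list, fatty acid oxidation had a median of −0.47 at 0 h, 0.68 at 48 h and −0.20 at 72 h, and inflammation and chemokines 0.88, −0.12 and 0.43.

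**Figure D4:**
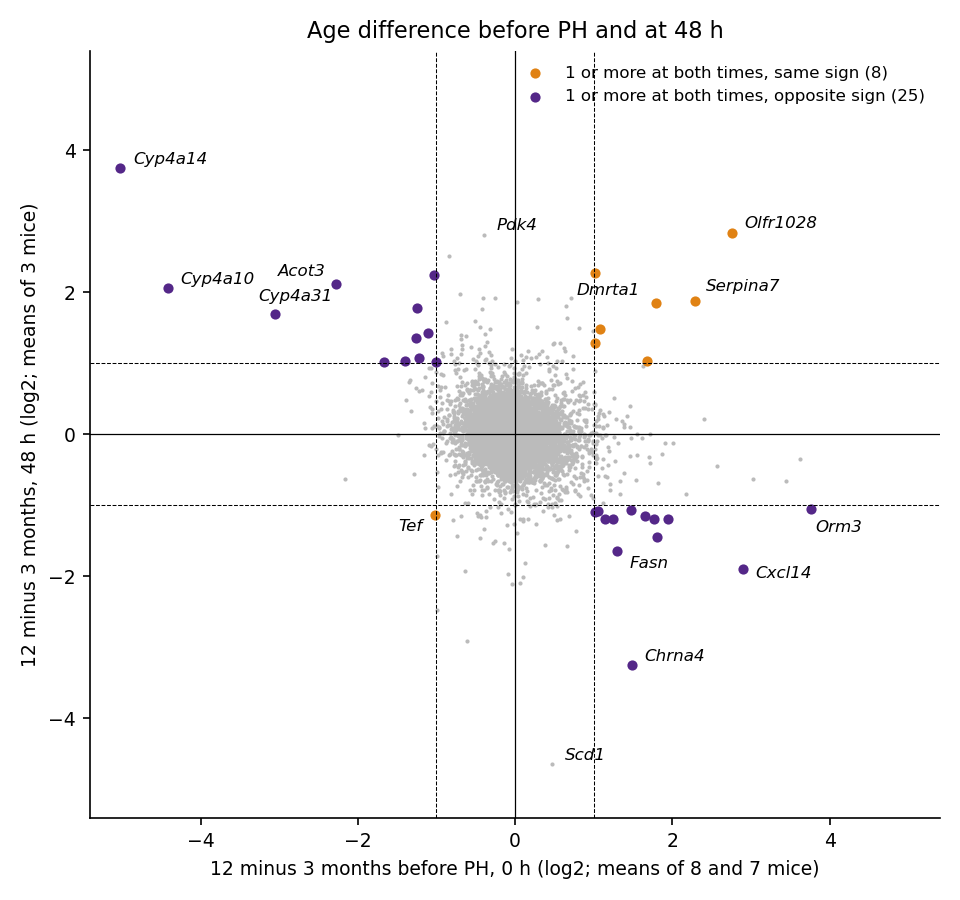
Each point is 1 gene, with its level at 12 minus 3 months before PH on the x axis (means of 8 and 7 mice) and at 48 h on the y axis (means of 3 mice), both log2. Dashed lines mark differences of 1. The 25 purple genes differ by 1 or more with opposite sign at the 2 times, Cyp4a14 farthest, and the 8 orange genes with the same sign.

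The change in the age difference was tested with the same borrowed spread. Between 48 h and 0 h it differed in 120 genes (1.08% of those tested, limma, Benjamini-Hochberg), 58 of them more positive at 48 h (0.522%) and 62 more negative (0.558%), and between 48 h and 72 h in 6 genes (0.054%). At 48 h against 0 h these included Cyp4a10 (a change in the difference of 6.47, SE 0.25, limma adjusted p = 0.00104), Cebpa (−2.44, limma adjusted p = 0.0112), Scd1 (−5.11, limma adjusted p = 0.0216) and Pdk4 (3.21, limma adjusted p = 0.0216). Against 72 h, Cebpa (−3.30), Ehhadh (2.31), the entry of Elovl3 with Pitx3 (3.78) and the ion channel Hcn3 (3.03) were among the 6. The 4 livers that supply the spread carry the mouse numbers of 4 of the 8 mice in the 12-month 0 h mean, which the fit treats as independent. Without liver M547 or liver M548 of those 4, the 120 genes became 8 and 13, and the 6 genes became 0 and 0 (1198 and 1360 at an unadjusted p under 0.05).

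A few genes differed by age alike at every time. All mice of the 12-month mean at 72 h, and some of the 3-month mean, carry mouse numbers of the 0 h means. The differences at 0 h and 72 h are therefore not separate by label. The olfactory receptor gene Olfr1028 (chr2:85950437-85953910, plus strand) was at 0.28 at 3 months and 3.12 at 12 months at 48 h, 1.01 and 3.77 at 0 h, and 0.46 and 2.76 at 72 h, and it rose with age at 48 h (limma adjusted p = 0.0247). Its neighbour Olfr1030 (0.43 and 1.93 at 48 h) and the pair Olfr701 (0.44 and 2.71) and Olfr703 (0.28 and 1.36) on chromosome 7 were higher too, from levels near the lowest in the tables. The transcription factor gene Dmrta1 rose from 1.0 to 2.84 (limma adjusted p = 0.0313), with age differences of 1.79 at 0 h and 1.41 at 72 h. Serpina7, which encodes the carrier of thyroxine in blood, was at 5.97 and 7.84, with 2.29 at 0 h and 1.52 at 72 h. In all, 5 genes (Cxcl13, Dmrta1, Olfr1028, Olfr701 and Serpina7) differed by 1 or more with the same sign at all 3 times, against 305 genes (2.74%) that did so at 72 h in either direction. Gpx3, a secreted glutathione peroxidase, was higher at 48 h (1.48) and at 0 h (1.09), and Tef was lower at both (−1.13 and −1.01).

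The 4 genes past the test that are not described above all fell. Lysmd2, which encodes a LysM domain protein, was at 3.41 at 3 months and 1.31 at 12 months, and at 0.96 and 1.01 at 0 h. Sectm1a (2.52 and 0.90, 0.97 and 0.89 at 0 h) had the same pattern, with the 3-month mean at 48 h standing above the other untreated means at 0, 48 and 72 h. The zinc importer Slc39a4 went from 7.12 to 5.31 (limma adjusted p = 0.0418), with 6.77 and 6.89 before PH. The connexin gene Gja10 was at 2.48 and 0.97.

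Among the 20 genes most above and the 20 most below, the spread over the 4 livers varied. Chrna4, a nicotinic receptor subunit, was at 5.54 at 3 months and 2.29 at 12 months, a difference of −3.25 with an SD over the 4 livers of 0.94. Fbf1 differed by 1.91 with an SD of 1.30, and Upp2 by −2.47 with an SD of 1.48. The lectin gene Lgals4 (3.47 and 5.71, SD 0.41), the zinc transporter gene Slc30a3 (2.02 and 3.94, SD 0.42) and Rpusd3 (3.21 and 5.11, SD 0.39) differed by more than 2 times their SD. The lipoprotein lipase gene Lpl, low in healthy adult hepatocytes, was at 5.43 and 3.72, and the tryptophan breakdown enzyme Acmsd at 5.35 and 3.43.

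**Figure D5:**
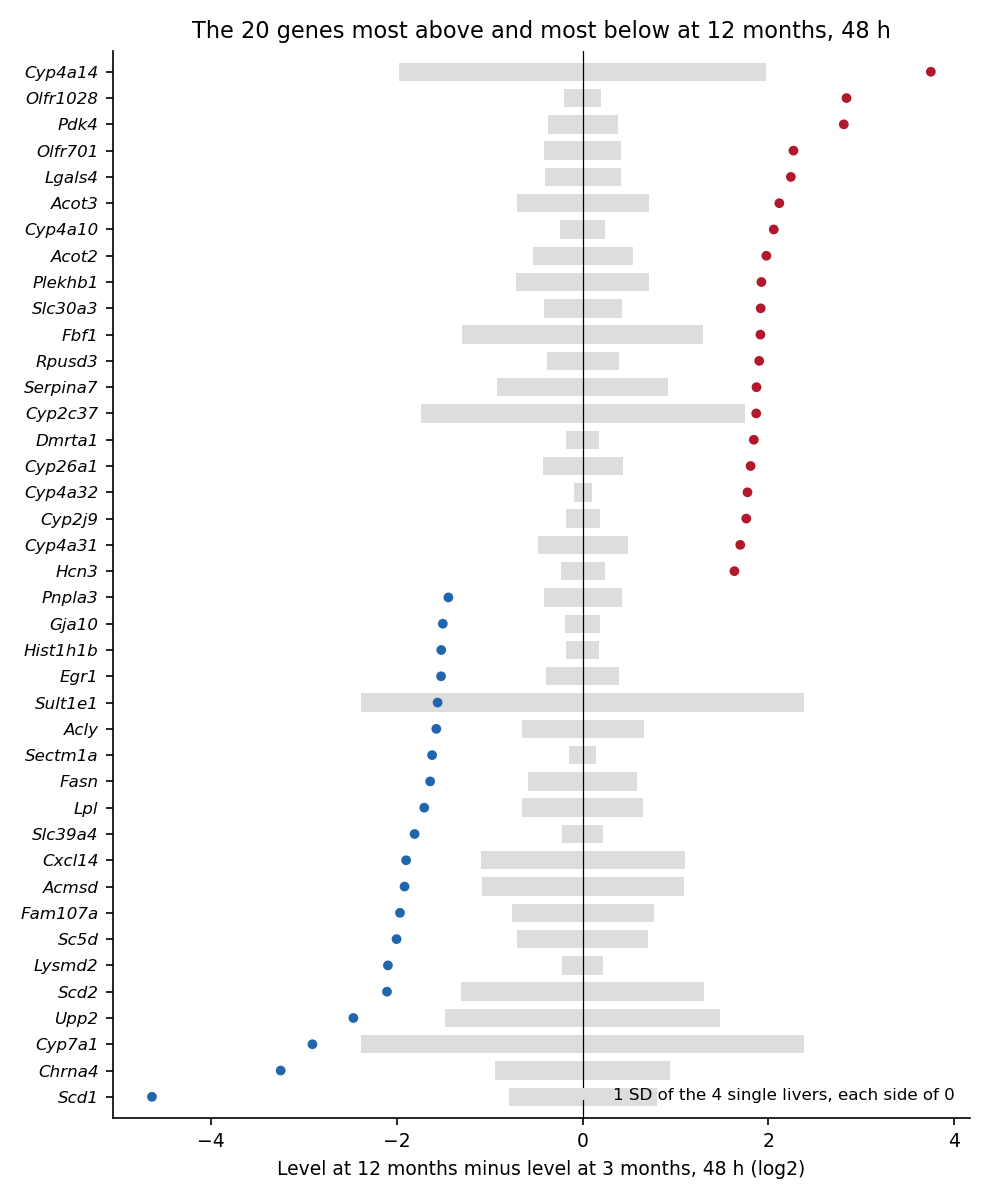
Points are the level at 12 minus 3 months at 48 h (log2, x axis) of the 20 genes most above (red) and the 20 most below (blue), and grey bars reach 1 SD of the 4 single livers to each side of 0. The bar reaches past the point for Sult1e1 (−1.56, SD 2.38) and close to it for Cyp7a1 and Cyp2c37, while it is short beside the point for Scd1, Pdk4 and Olfr1028.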

How the data were processed

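Genes were measured as polyA RNA of mouse liver. The authors deposited a table for each group with a log2 value per gene, as the mean over the mice of the group, and single values for 4 livers. They named the unit log2 sigma, and it is read here as log2 expression. The genome build is GRCm38 (mm10), per the submitters' processing notes. The aligner, counting, scaling and way of averaging are not given in the sources used here. Of 11119 entries, 507 join overlapping genes, and 10409 matched 1 GENCODE M21 gene by symbol and chromosome.

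Differences were taken between deposited means. The limma test (limma 3.58.1, R 4.3.3) used the 4 single livers and the 8 other group means, weighted by their number of mice, with trend and robust settings, two-sided, and adjusted p under 0.05. On simulated data it found 32.2% of changes of 1 and 73.4% of changes of 2, and 5.71% of its calls were false. Every simulated group was given the spread of the 4 livers, so the simulation cannot check that assumption. The labels number each mouse, and p-values measure the spread between these 4 livers. The deposited mean of the 4 livers lay a median of 0.0878 above their own mean.

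The comparison, lists and members were chosen with earlier results of these data known. Named genes are the 20 most above and below with a level of 2 or more (predicted and joined genes left out), up to 6 members of each of the 42 lists, genes differing at both 0 and 48 h, set regulators and genes past the test. Other members were added for their function after their values were seen. Alternatives were a pseudocount of 1, centring, quantile normalization, a level filter of 2, other limma settings and leaving out each liver.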

Additional observations from a re-analysis of the deposited data

Results flagged for a closer look

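The genes below were singled out because their age difference at 48 h differed from that at another time in the limma test with the borrowed spread (adjusted p from 0.00104 to 0.0498). The value given is the difference at 48 h minus that at the other time, on the log2 scale. The 48 h mice carry other labels than those at 0 h and 72 h, and the fit treats them as independent.

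Against 0 h, genes of fat breakdown were more positive at 48 h. The change was 8.77 for Cyp4a14, 6.47 for Cyp4a10, 4.75 for Cyp4a31, 3.02 for Cyp4a32 and 1.90 for Cyp4a12b. It was 4.39 for Acot3, 2.68 for Acot2, 3.21 for Pdk4, 2.61 for Slc22a5, 2.30 for Ehhadh and 1.78 for Crot. The entry of Elovl3 with Pitx3 changed by 3.35 and that of Nr1i3 with Tomm40l by 2.02. Others more positive at 48 h were Lgals4 (3.28), Cyp2j9 (2.19), Slc30a3 (2.18), Igfbp2 (2.08), Sftpa1 (1.96) and Lrat (1.81).

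More negative at 48 h than at 0 h were the lipid synthesis genes Scd1 (−5.11), Pnpla3 (−3.26) and Fasn (−2.94). The same held for the inflammatory genes Orm3 (−4.81), Cxcl14 (−4.79), Ccl2 (−2.96) and Ccl7 (−2.81), for the Kupffer cell gene Clec4f (−1.14), for Cebpa (−2.44) and for Chrna4 (−4.74). Lysmd2 (−2.16), Slc39a4 (−1.94), Sectm1a (−1.54), Gja10 (−1.26), Hist1h1b (−1.25) and Btg2 (−1.23) were also more negative. Against 72 h, the entry of Elovl3 with Pitx3 (3.78), Hcn3 (3.03) and Ehhadh (2.31) were more positive at 48 h and Cebpa (−3.30) more negative. These calls rest on the spread of 4 livers, and without liver M547 the counts behind them fell from 120 to 8 genes against 0 h and from 6 to 0 against 72 h.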

How the results depend on the processing

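No paired analysis was possible because the 48 h groups were deposited as 1 mean each, although the labels number the mice of both ages alike. For the same reason no 48 h mouse could be left out. The 87 higher and 64 lower genes became 6 and 6 when the test with the borrowed spread was asked for in place of a difference of 1. That test passed 12 genes, 2 without the trend and robust settings and 7 after quantile normalization. Its calls ranged from 0 to 8 when each of the 4 livers was left out in turn (0 without liver M548, 2 without M547, 5 without M545, 8 without M546), and the fit then has fewer livers to estimate spread from. The 120 genes whose age difference differed between 48 h and 0 h became 42 without trend and robust settings, and 8 to 77 when a liver was left out (8 without M547, 13 without M548, 61 without M545, 77 without M546). The 6 genes for 48 h against 72 h became 2 without trend and robust settings, 11 with a pseudocount of 1, 3 after quantile normalization and 15 among genes with a level of 2 or more, and 0 to 6 when a liver was left out (0 without M547 or M548, 3 without M545). The cause of these shifts was not tested.

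For the 283 genes named by the rules, 26 of 1376 values under other settings moved by more than the SD over the 4 livers, and none changed sign after a difference of 1 or more. Of 206 list medians recomputed, 3 moved by more than the SD of the livers' medians and 5 changed sign, all from medians between −0.09 and 0.13: ribosomal proteins (−0.02) and immediate early genes (0.17) among genes with a level of 2 or more, insulin signalling (−0.002) and ribosome biogenesis (−0.018) after centring on the median, and ribosome biogenesis after quantile normalization (−0.012). With no counts, what depth limits could not be computed.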

Other observations

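The genes below were chosen after their values were seen and stand for no group. The retinoic acid hydroxylases Cyp26a1 (1.81) and Cyp26b1 (1.20) and the retinol acyltransferase Lrat (1.07) were higher at 12 months at 48 h, while the retinol dehydrogenase Rdh11 (−0.53) was lower. In the ATRi-treated 12-month mean at 48 h the first 3 stood at 6.11, 2.22 and 3.52, near the untreated 12-month levels of 6.41, 2.19 and 3.66. Metal transporters differed in both directions. The zinc transporter Slc30a3 was at 2.02 at 3 months and 3.94 at 12 months, the manganese exporter Slc30a10 at 5.21 and 6.35, and the zinc importer Slc39a4 at 7.12 and 5.31.

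The insulin-like growth factor binding proteins Igfbp5 (1.52 and 3.12) and Igfbp6 (1.76 and 2.86) were higher at 12 months, in addition to Igfbp1 and Igfbp2, while Igfbp3 (−0.14) and Igfbp4 (−0.38) were lower. The SD over the 4 livers was 1.004 for Igfbp5 and 0.99 for Igfbp6. The redox regulator Txnip, which responds to glucose, was at 5.91 and 7.39. Sftpa1, a surfactant protein gene best known from lung, was at 3.52 at 3 months and 5.03 at 12 months at 48 h, against 2.70 and 2.25 at 0 h. The lipid transporters Abca8a (1.40) and Abca8b (1.06), neighbours on chromosome 11, were higher together.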
